A study of Arabidopsis thaliana with 6 samples.

Results

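The genes described here are 10 genes of jasmonate synthesis and response in Arabidopsis thaliana, followed in seedlings moved from darkness into light. They were chosen by identifier as VSP1, VSP2, LOX2, AOS, AOC1, AOC2, OPR3, JAZ1, JAR1 and MYC2, and make up 10 of the 36917 genes in the table. Seeds for all 6 libraries had 3 days of stratification and a white light pulse of 2 h, at 100 µmol photons per square metre and second, followed by 3 days of darkness and 1 day of light, and RNA is labelled as day 4. The groups, both labelled Col-0, are 3 wild-type libraries and 3 libraries labelled bbx14-1, an allele name of BBX14, which encodes a B-box transcription factor. Separate growth of the samples of a group is not stated, so each p-value measures only how these samples spread, and part of that spread may be technical.

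Jasmonates are lipid hormones made from α-linolenic acid. In the plastid, a lipoxygenase such as LOX2, the allene oxide synthase AOS and the allene oxide cyclases AOC build the intermediate OPDA, which OPR3 reduces in the peroxisome before β-oxidation. JAR1 joins the product to isoleucine, and this conjugate lets the receptor COI1 bind JAZ repressors and send them for degradation, which frees MYC2 and its relatives to act on their targets. VSP1 and VSP2, the vegetative storage proteins of leaves, are standard reporters of this branch. JAR1 is also known as FIN219, a factor of far-red light signalling, and MYC2 acts in light signalling as well.

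VSP2 and AOS were the members that rose in the libraries labelled bbx14-1, and neither VSP1 nor the other measured synthesis and signalling genes passed the test. Of the 10 members, 9 passed the filter of a mean of at least 10 normalized counts, and 2 of these 9 were called higher and 0 lower (limma, Benjamini-Hochberg adjusted p under 0.05 over 19003 genes). The background is a share of 4.65% of all genes tested that were called, 883 genes in all, with 2.51% higher and 2.14% lower. At an unadjusted p under 0.05 (limma), 3180 of the 19003 genes passed, which is the background for the counts at that threshold given below. The median log2 fold change of the 9 members was 0.07, against 0.0029 over all genes tested. The tenth member, MYC2, was listed at 0 in all 6 libraries, which is taken up at the end.

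BBX14 itself was not lower in the libraries that carry its label: it had 540, 683 and 517 normalized counts in the wild-type libraries, against 649, 761 and 892 under the bbx14-1 label (log2 fold change 0.40, limma adjusted p = 0.0726). It was called higher when wild-type replicate 2 was left out, at 0.53, or bbx14-1 replicate 1, at 0.52 (limma, adjusted p = 0.0199 and 0.0306). Each direction here therefore refers to the label. Recovered depth was 20939505 to 32621183 reads per library, and of these 9816440 to 14677324 fell on nuclear genes. Among genes with 1 to 20 reads, 77.6% to 82.1% of the counts of a library were even numbers, so a count of reads is not taken here as a count of independent fragments. The markers of green cotyledons, root, epidermis and vasculature were all detected.

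Promoters are shown for VSP1 and VSP2, close relatives of which only VSP2 was called, and for AOS, the synthesis gene that rose. Each runs from 250 bases before the annotated start of the gene to 50 bases after it, on the strand of the gene, in TAIR10.1. Capitals mark the G-box CACGTG, a motif bound by MYC2 and by many other light-regulated bHLH and bZIP factors, and its variant CACATG, searched on both strands.
VSP1 (chr5:8509152-8509451, minus strand): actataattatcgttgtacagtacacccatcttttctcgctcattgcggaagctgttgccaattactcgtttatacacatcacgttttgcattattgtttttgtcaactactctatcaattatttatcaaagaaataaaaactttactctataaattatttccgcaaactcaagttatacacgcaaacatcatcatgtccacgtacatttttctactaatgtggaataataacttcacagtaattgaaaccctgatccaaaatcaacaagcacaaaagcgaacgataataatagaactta
VSP2 (chr5:8502175-8502474, minus strand): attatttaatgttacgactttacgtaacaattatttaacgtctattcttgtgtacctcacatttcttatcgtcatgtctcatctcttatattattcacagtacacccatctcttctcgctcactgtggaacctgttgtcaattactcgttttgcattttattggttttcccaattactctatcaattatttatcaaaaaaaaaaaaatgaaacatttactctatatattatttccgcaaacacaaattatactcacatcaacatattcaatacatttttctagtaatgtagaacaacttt
AOS (chr5:17099546-17099845, minus strand): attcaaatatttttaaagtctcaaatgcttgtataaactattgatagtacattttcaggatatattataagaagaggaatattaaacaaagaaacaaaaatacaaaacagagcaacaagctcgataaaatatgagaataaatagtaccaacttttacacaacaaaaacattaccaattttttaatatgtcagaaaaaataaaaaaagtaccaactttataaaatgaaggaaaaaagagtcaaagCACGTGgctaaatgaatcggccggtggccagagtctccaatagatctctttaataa

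AOS holds a CACGTG that begins 6 bases before its annotated start, and the windows of VSP1 and VSP2 hold neither motif. Among 27443 protein-coding genes, 7.68% have CACGTG in such a window, 12.9% have CACATG and 19.3% have either. Of the 10 members, 3 have either motif, namely AOS with CACGTG and LOX2 and JAR1 with CACATG. A match is a description of letters and not a bound site, and a window without one says nothing about the factor.

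The response genes VSP1 and VSP2 lie on the minus strand of chromosome 5, VSP1 (AT5G24780) from 8507590 to 8509201 and VSP2 (AT5G24770) from 8500468 to 8502224. VSP2 stood at 16.8, 17.6 and 16.1 normalized counts in wild-type replicates 1, 2 and 3, and at 43.2, 60.2 and 48.0 in replicates 1, 2 and 3 labelled bbx14-1. The read numbers behind them were 14 to 20 in wild type and 48 to 56 under the bbx14-1 label. All libraries labelled bbx14-1 were above all wild-type ones, and the wild-type libraries lay close together. At 14 to 20 reads, counting error alone would spread them more, so their closeness is not a measure of precision. The mean rose from 16.8 ± 0.724 to 50.5 ± 8.76 (SD, n = 3), or by 1.51 on the log2 scale (standard error 0.37, 95% interval from 0.76 to 2.27; limma, adjusted p = 0.0144). The call was lost without bbx14-1 replicate 2, the highest library (1.38, limma adjusted p = 0.102).

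VSP1 was not called. It had 15.1, 15.1 and 4.03 normalized counts in the wild-type libraries, against 4.80, 12.9 and 12.0 under the bbx14-1 label, from 4 to 18 reads per library. The groups overlap widely and wild-type replicate 3 was the lowest of all. The log2 fold change was -0.11 with a 95% interval from -1.49 to 1.28 (limma, adjusted p = 0.963), an interval that holds sizeable changes in either direction. It overlaps the interval of VSP2, from 0.76 to 2.27. Overlap of intervals does not test a difference between VSP1 and VSP2, and such a difference is not established here. The coding sequences of the pair are 88.1% identical over 816 alignment columns, and 0.42% of the 50-base exon windows of VSP1 and 0.353% of those of VSP2 occur elsewhere in the genome.

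The ratio of VSP2 to VSP1, chosen after the values were seen, compares the pair within a library. It was 1.11, 1.17 and 4.0 in wild type and 9.0, 4.67 and 4.0 in the libraries labelled bbx14-1. Wild-type replicate 3 reached the level of bbx14-1 replicate 3, where its VSP1 count was the lowest of all libraries. On the log2 scale, with 1 added to each normalized count, the ratio was higher by 1.62 in the libraries labelled bbx14-1. An exact two-sided permutation test gave p = 0.1 (n = 3 per group), the smallest p that 3 against 3 libraries allow. The groups separate only through the added 1, as without it both replicates 3 tie at 4.0. The test therefore cannot decide whether the ratio differs.

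**Figure D1:**
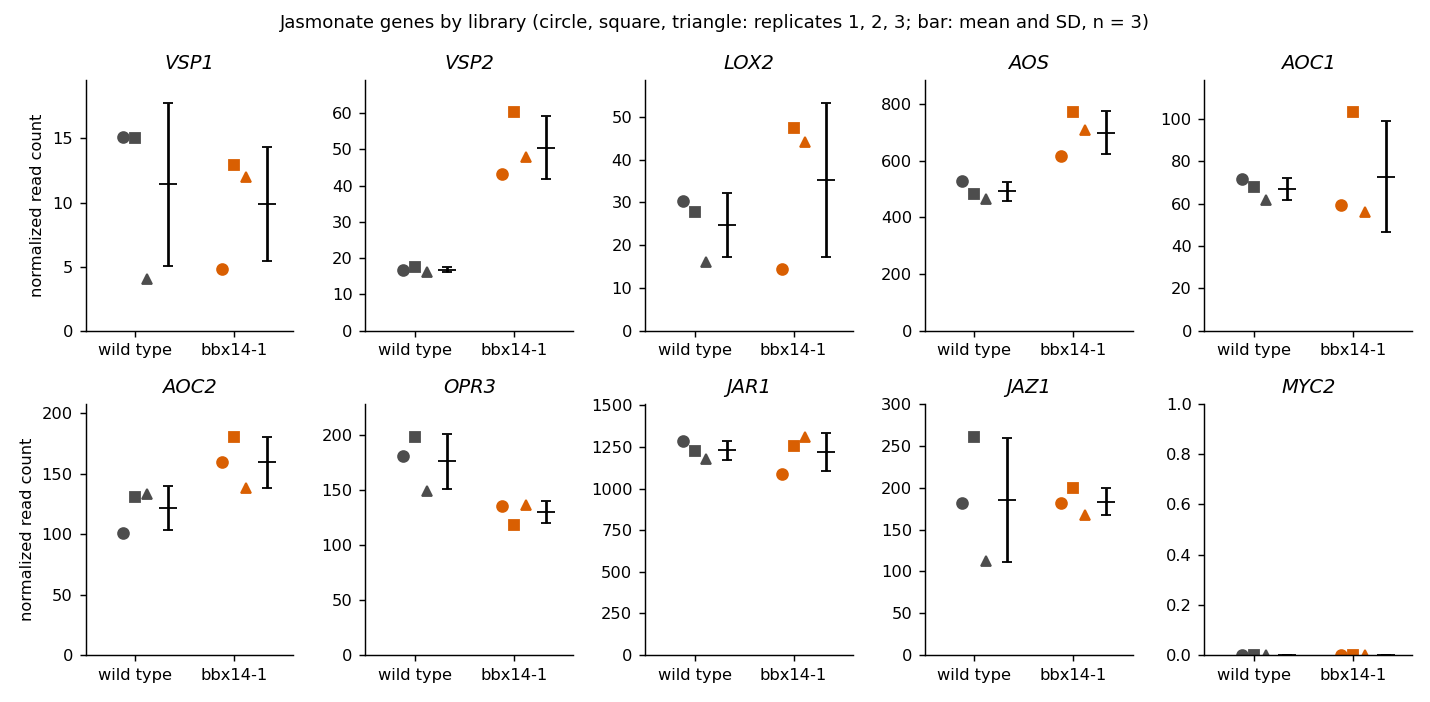
Normalized read counts of the 10 jasmonate genes in each library, on axes that start at 0, with wild type in grey and the libraries labelled bbx14-1 in orange; circles, squares and triangles are replicates 1, 2 and 3, and the bar is the mean with its SD. VSP2, AOS and AOC2 have all orange points above all grey ones, OPR3 has them below, and MYC2 is at 0 throughout.

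Among the synthesis genes, only AOS was called. AOS (AT5G42650), which turns a lipoxygenase product into allene oxide, is a gene with 1 exon on chromosome 5 from 17097564 to 17099595, minus strand. It had 530, 482 and 464 normalized counts in the wild-type libraries, against 619, 772 and 710 under the bbx14-1 label. The groups did not overlap, and bbx14-1 replicate 1 was the lowest of the higher group. The mean rose from 492 ± 34.0 to 700.3 ± 76.9 (SD, n = 3), a fold change of 1.42, or 0.50 on the log2 scale (standard error 0.11; limma, adjusted p = 0.00919). The call was lost without wild-type replicate 3 at 0.46 and without bbx14-1 replicate 2 at 0.43 (limma, adjusted p = 0.0512 and 0.0625), and with all libraries but no variance trend (limma, adjusted p = 0.189).

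The cyclases that act after AOS had smaller or less certain differences. AOC2 had 100.9, 131 and 133 normalized counts in the wild-type libraries, against 160, 181 and 138 under the bbx14-1 label, with no overlap between the groups. Its log2 fold change of 0.39 (95% interval from -0.0018 to 0.78) did not pass the test (limma, adjusted p = 0.302). AOC1 had 71.5, 67.8 and 61.5 in the wild-type libraries, against 59.2, 103 and 56.02 under the bbx14-1 label. Only replicate 2 lay above wild type, and the log2 fold change was 0.07 (limma, adjusted p = 0.941).

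AOC1, AOC2 and AOC3 sit next to each other on the plus strand of chromosome 3, between 9403779 and 9411090, and AOC4 is on chromosome 1. AOC3 and AOC4, named after their values were seen, complete the family. AOC3 had 37.0, 15.1 and 28.2 in the wild-type libraries, against 46.4, 60.2 and 52.0 under the bbx14-1 label, and its log2 difference of 1.04 did not pass (limma, adjusted p = 0.112). AOC4 had a log2 difference of 0.28 (limma, adjusted p = 0.393). All 4 cyclase genes thus had a positive value and 0 were called (limma; 1 of the 4, AOC3, at an unadjusted p under 0.05, and 0 with voom on recovered reads). AOC1 turned negative without bbx14-1 replicate 2 (-0.21). The AOC1 and AOC2 coding sequences are 89.9% identical, and 2.20% and 0.0832% of their 50-base windows occur elsewhere.

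LOX2 (AT3G45140, chromosome 3 from 16525245 to 16529352, plus strand), the plastid lipoxygenase of the wound response, was scarce. It had 30.3, 27.6 and 16.1 normalized counts in the wild-type libraries, against 14.4, 47.3 and 44.0 under the bbx14-1 label. The libraries labelled bbx14-1 held both the lowest and the highest values, and the log2 fold change of 0.37 had a 95% interval from -0.55 to 1.298 (limma, adjusted p = 0.749). With 1 library left out the value ran from 0.083, without bbx14-1 replicate 2, to 0.91, without bbx14-1 replicate 1, and it was not called in any of the 6 cases. Replicate 1 labelled bbx14-1 was low for VSP1 as well as for LOX2.

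OPR3 (AT2G06050, chromosome 2 from 2359114 to 2362375, minus strand), which reduces OPDA in the peroxisome, had a negative value. It had 181, 198 and 149 normalized counts in the wild-type libraries, against 136, 118 and 136 under the bbx14-1 label. Every library labelled bbx14-1 was below every wild-type one, but the log2 fold change of -0.43 (95% interval from -0.80 to -0.06) did not pass over all genes (limma, adjusted p = 0.212). JAR1 (AT2G46370, chromosome 2 from 19033586 to 19036683, plus strand), the enzyme that makes the active isoleucine conjugate, had 1287, 1228 and 1176 in the wild-type libraries, against 1089, 1257 and 1312 under the bbx14-1 label. Its log2 fold change of -0.02 had the narrowest interval of the members, from -0.22 to 0.19 (limma, adjusted p = 0.962).

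Groups that did not overlap were seen for 4 of the 9 members tested, VSP2, AOS, AOC2 and OPR3, against 21.0% of all genes tested. Of these 4, VSP2, AOS and AOC2 were higher in the libraries labelled bbx14-1 and OPR3 was lower. Within the libraries labelled bbx14-1, replicate 2 held the highest value of VSP1, VSP2, LOX2, AOS, AOC1, AOC2 and JAZ1 and the lowest of OPR3. Within wild type, replicate 3 held the lowest value of VSP1, VSP2, LOX2, AOS, AOC1, OPR3, JAR1 and JAZ1, and replicate 1 that of AOC2.

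**Figure D2:**
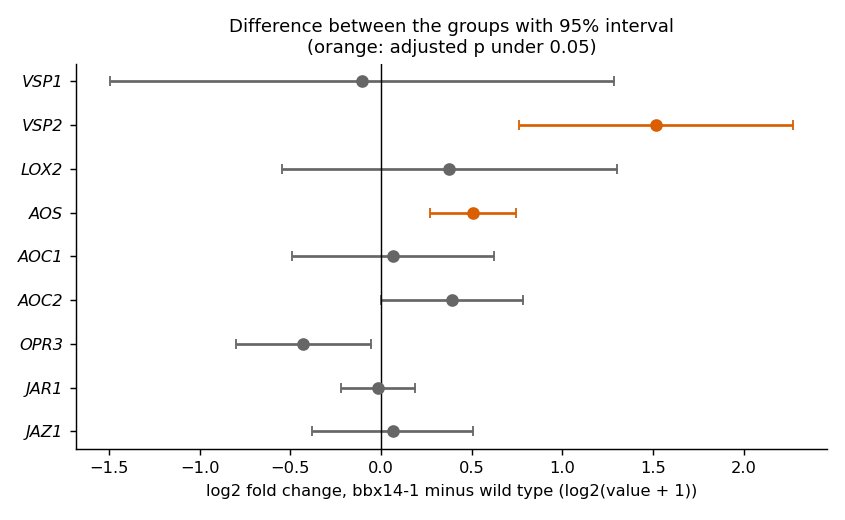
Log2 fold change of each tested jasmonate gene, libraries labelled bbx14-1 minus wild type on the log2(value + 1) scale, with its 95% interval from limma. VSP2 at 1.51 and AOS at 0.50, in orange, were called, and the interval of OPR3 lies below 0 although it did not pass the adjustment over all genes.

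The levels of the members spanned a wide range. Per kilobase of exon and averaged over the 6 libraries, JAR1 had 450.0 normalized counts, followed by AOS at 293, AOC2 at 108, JAZ1 at 102, OPR3 at 89.8, AOC1 at 58.7, VSP2 at 22.2, LOX2 at 9.21 and VSP1 at 7.97. The ranges over libraries did not overlap between JAR1 and AOS, AOS and AOC2, or AOC1 and VSP2. VSP2 and LOX2 overlapped in range, but LOX2 was below VSP2 within each of the 6 libraries. The other neighbours, from AOC2 down to AOC1 and LOX2 with VSP1, overlapped, and the lower gene of a pair was below the upper in 4 or 5 of the 6 libraries. JAR1 lay above 87.5% of the nuclear genes tested and AOS above 79.6%, whereas LOX2 lay above 4.45% and VSP1 above 3.15%.

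In signalling, JAZ1 (AT1G19180, chromosome 1 from 6621777 to 6623668, plus strand), a repressor and itself a rapid target of the hormone, had 182, 261 and 113 normalized counts in the wild-type libraries, against 182, 199.9 and 168 under the bbx14-1 label. The wild-type libraries spanned the whole range, and the log2 fold change was 0.06 with a 95% interval from -0.38 to 0.51 (limma, adjusted p = 0.927). The sign changed without wild-type replicate 3 (-0.25) and without bbx14-1 replicate 2 (-0.00034).

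A further 75 genes of the pathway, listed by role from general knowledge, place the members in context. Of these, 52 passed the filter, and 1 was called higher and 2 lower, a share of 5.77% against 4.65% of all genes tested. Their median log2 fold change was -0.02. With voom on recovered reads 4 were called.

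The called genes were a lectin gene and a pair of NAC transcription factor genes. JAL35, also known as JR1, a jacalin-related lectin gene induced by jasmonate, had 896, 968 and 1036 normalized counts in the wild-type libraries, against 1109, 1493 and 1334 under the bbx14-1 label. It rose by 0.43 on the log2 scale (limma, adjusted p = 0.0186), and leaving out wild-type replicate 1, bbx14-1 replicate 2 or bbx14-1 replicate 3 ended that call (limma, adjusted p = 0.126, 0.128 and 0.0553). Exons of its opposite-strand neighbour AT3G16460, the lectin gene JAL34, cover 23.8% of its exon bases, and that gene also rose by 0.38 (limma, adjusted p = 0.0182). Its call ended with replicate 1 or 3 of wild type or replicate 3 of bbx14-1 left out (limma, adjusted p = 0.0763, 0.101 and 0.07995), and the calls of both lectin genes ended without the variance trend (limma, adjusted p = 0.274 for JAL35 and 0.279 for AT3G16460). The strand setting of the counting is not given. Of 446 protein-coding genes with at least 95% of their exon bases under opposite-strand exons, 438 were at 0 in every library. Whether reads in the stretch shared by JAL35 and AT3G16460 were counted for either gene was not tested.

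ANAC055 and ANAC072 are MYC2 targets that also respond to abscisic acid and drought, and ANAC072 is also named RD26. ANAC055 fell by 0.80 on the log2 scale, from 478, 570 and 506 normalized counts in wild type to 361, 234 and 306 under the bbx14-1 label (limma, adjusted p = 0.00106). ANAC072 fell by 0.69, from 357, 344 and 317 to 201, 224 and 204 (limma, adjusted p = 0.0032). Neither pair of groups overlapped, and both calls held with any 1 library left out but not without the variance trend (limma, adjusted p = 0.163 and 0.0983). The other 7 tested factors and cofactors, among them MYC3 and MYC4, were not called.

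No gene of the remaining synthesis list was called, with 0 of 16 tested (2 at an unadjusted p under 0.05, 0 with voom), against 4.65% of all genes tested. At an unadjusted p under 0.05 (limma), 3180 of all 19003 genes passed, so the counts at that threshold do not set these lists apart. Its most abundant members were FAD7, a desaturase that makes α-linolenic acid, at a log2 fold change of -0.15, and KAT2, a thiolase of peroxisomal β-oxidation, at -0.09 (limma, adjusted p = 0.455 and 0.695). In hormone turnover, against the same background of 4.65%, 0 of 9 were called by limma (2 at an unadjusted p under 0.05) and 1 by voom. That one, named after its values were seen, was AT2G38240, an annotated iron-dependent oxygenase gene with 5.05, 0 and 4.03 normalized counts in the wild-type libraries and 16.0, 19.3 and 18.0 under the bbx14-1 label (limma, adjusted p = 0.0639). ILL6, an amidohydrolase gene of the same list named after its values were seen, had 251, 205 and 222 in the wild-type libraries, against 276, 326 and 340 under the bbx14-1 label (limma, adjusted p = 0.0645). The turnover genes CYP94B1 and ST2A, the most abundant, were at -0.04 and 0.10 (limma, adjusted p = 0.916 and 0.829).

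Perception and repression showed no call, with 0 of 13 tested (limma; 0 at an unadjusted p under 0.05, 0 with voom). With 4.65% of all genes tested called, 0 calls in so short a list does not set it apart. The list holds the receptor gene COI1, the adaptor gene NINJA, the corepressor gene TPL and the other JAZ genes, and 10 of the 13 had a negative value. TPL was at -0.0099 and COI1 at -0.09 (limma, adjusted p = 0.972 and 0.745), and over the list the log2 fold changes ran from -0.38 to 0.29. The median of the list was -0.04, against 0.0029 over all genes tested.

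Several classical defence outputs of jasmonate were at or near 0. In the ethylene-dependent branch, the defensin genes PDF1.2a, PDF1.2b, PDF1.2c and PDF1.3 were at 0 in all libraries, and the regulator genes ERF1 and ORA59 had at most 3.36 and 6.40 normalized counts. The limit that a count of 0 allows, 3 reads, lay between 2.40 and 3.77 normalized counts by library and covers counting error only. It takes reads as independent, which the mostly even low counts do not bear out, so it may be too low. HEL, a hevein-like gene, was the 1 tested gene of that list, with a log2 value of -0.14 (limma, adjusted p = 0.739). In the MYC-dependent list, TAT3, NATA1, THI2.1 and TPS04 were likewise at 0. So were the synthesis genes DAD1 and DGL and the factor genes MYC5 and MYB24, which makes 12 of the 75 genes. Of these 12, MYB24 shares 46.6% of its exon bases with an opposite-strand gene and THI2.1 2.49%, and the other 10 share none. Over the whole table, 3864 of 20832 protein-coding genes without such an overlap, or 18.5%, were at 0 in every library. The number of zeros therefore did not set the 75 genes apart.

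**Figure D3:**
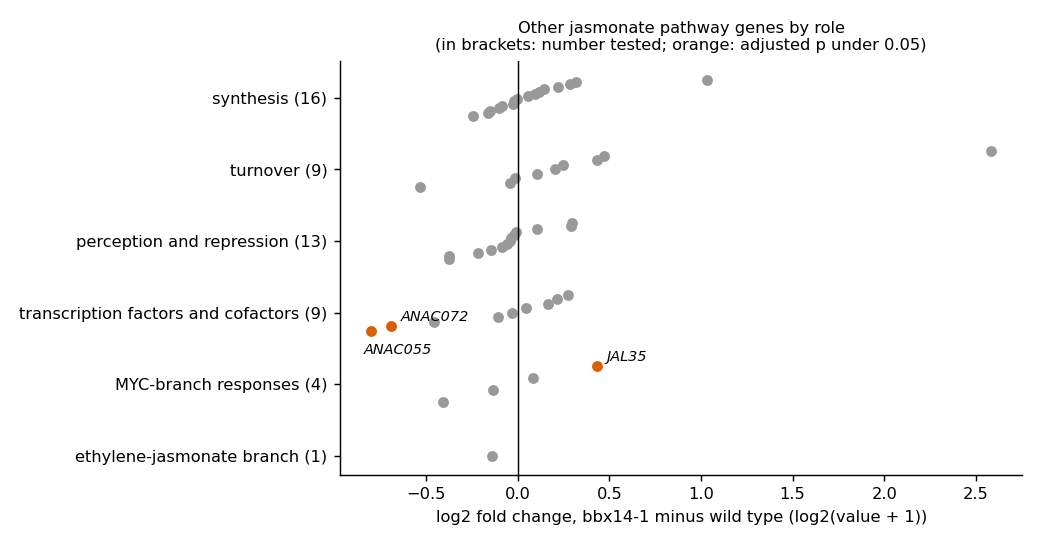
Log2 fold change, libraries labelled bbx14-1 minus wild type on the log2(value + 1) scale, of the 52 other jasmonate pathway genes that were tested, by role, with the number tested in brackets and called genes in orange. ANAC055 and ANAC072 lie to the left, JAL35 to the right, and the grey point farthest right is AT2G38240, a low-count gene that was not called.

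Summed marker levels did not overlap between the groups for root and seed, although few single markers passed the test. Of all single genes tested, 21.0% had groups that did not overlap and 4.65% were called (limma). With so few markers per list, the counts below are not set apart from these shares. The summed level of 6 root markers was 26633 to 29706 normalized counts in wild type and 32889 to 40525 in the libraries labelled bbx14-1, carried mostly by PYK10, a glucosidase gene of roots and hypocotyls, and highest in bbx14-1 replicate 2. All 6 had a positive log2 fold change and 0 were called (limma; 2 at an unadjusted p under 0.05, 1 with voom). The groups did not overlap for PYK10 and COBL9 (log2 fold change 0.32 and 1.59, limma adjusted p = 0.0893 and 0.0669). Those of EXPA7, CASP1, CASP2 and SHR overlapped, so the sum mainly reflects PYK10. The 4 seed markers summed to 123 to 565 in wild type and 61.02 to 64.8 in the libraries labelled bbx14-1, and 1 of the 3 tested was called. That was the storage protein gene CRC, with 276, 70.3 and 58.5 normalized counts in the wild-type libraries and 24.0, 19.3 and 22.0 under the bbx14-1 label (log2 fold change -2.22; limma, adjusted p = 0.00146). Wild-type replicate 1 stood apart from the other wild-type libraries in CRC and in CRA1, another storage protein gene, and without it the CRC value was -1.52 (limma, adjusted p = 0.0365). The CRC call was also lost without the variance trend (limma, adjusted p = 0.191). The 4 epidermis and stomata markers summed to 3671 to 4112 in wild type and 4033 to 5101 under the bbx14-1 label, with 0 called (limma; 1 at an unadjusted p under 0.05, 0 with voom). That one was PDF1, an epidermis gene whose groups did not overlap (log2 difference 0.35; limma, adjusted p = 0.0708). The 3 vasculature markers summed to 2201 to 2585 and 2367 to 2922, with 0 called (limma; 0 at an unadjusted p under 0.05, 0 with voom). The 4 green cotyledon markers overlapped, at 550735 to 594192 and 507805 to 645825, with 0 called (limma; 0 at an unadjusted p under 0.05, 0 with voom). The part of these markers in the values of VSP2, AOS, ANAC055 and ANAC072 was not tested. In these bulk samples, fewer cells of a type and less RNA per cell cannot be told apart.

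The genes most like a member over the 6 libraries were found by the root mean square difference of centred log2 values among 15036 genes. For VSP2 they were ABCG6, an ABC transporter gene, HB4, a shade-responsive homeobox gene, and AT2G22510, at differences of 0.19, 0.22 and 0.22 where VSP2 itself varied by 0.77. ABCG6 rose from 62.1 ± 3.74 to 149 ± 6.35 normalized counts, or by 1.25 on the log2 scale (limma, adjusted p = 0.000557). For JAR1 they were AT1G21660, ATMG01320 and AT1G73740, at 0.02, 0.03 and 0.03, and for JAZ1 AT3G47210, AT5G38212 and AT3G02340, at 0.06, 0.09 and 0.09. None of these 6 was called (limma, adjusted p from 0.819 to 0.998). Likeness over 6 libraries in 2 groups is a description only. These genes were picked by the same values that were tested, so their p-values and calls, or lack of calls, follow from the choice and support nothing further.

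MYC2 (AT1G32640), the central activator of the pathway, had 0 reads in all 6 libraries, and this value cannot be read as its level. In TAIR10.1 its single exon runs on the minus strand of chromosome 1 from 11798119 to 11801407, and 3241 of its 3289 exon bases, or 98.5%, are also exon of AT1G32630, a gene on the plus strand from 11797330 to 11801359. That partner had 2.51 to 12.0 normalized counts. Over the whole table, 438 of 446 protein-coding genes with at least 95% of their exon bases shared in this way were at 0 in every library, or 98.2%. Among 20832 protein-coding genes without such an overlap the share was 18.5%. The zero of MYC2 thus goes with its overlap and was shared by nearly all genes placed alike, so the table gives no measurement of MYC2 in either group. Its relatives MYC3 and MYC4, at 341 to 504 and 213 to 264 normalized counts over the 6 libraries, were measured and are named after their values were seen, and the log2 fold change was 0.27 for MYC3 and -0.11 for MYC4 (limma, adjusted p = 0.326 and 0.793).

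**Figure D4:**
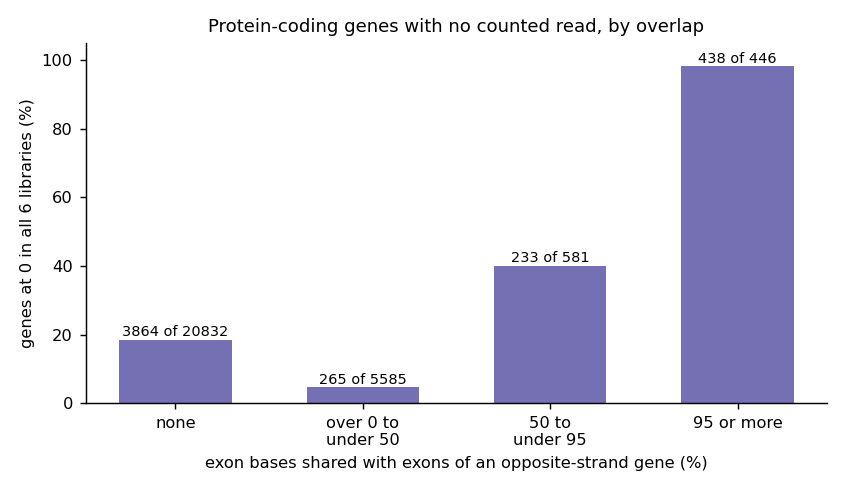
Share of protein-coding genes with no counted read in any of the 6 libraries, on a percent axis from 0, by the percentage of their exon bases that are also exon of a gene on the opposite strand. The share is 18.5% without overlap, 4.74% and 40.1% in the middle classes, and 98.2% in the class of 95% or more, to which MYC2 belongs.

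Leaving out single libraries separated the called genes into those that held and those that did not. ANAC055 and ANAC072 stayed called in all 6 cases, at log2 fold changes from -0.95 to -0.63 and from -0.74 to -0.65. VSP2 ran from 1.38 to 1.62, AOS from 0.43 to 0.59 and JAL35 from 0.33 to 0.55, all positive, and none of these 3 was called without bbx14-1 replicate 2. Without that library, 0 of the 9 members were called (limma; 2 at an unadjusted p under 0.05, against 2637 of all 18960 genes). Calls over all genes fell as well, from 883 of 19003 to 594 of 18960. They fell further, to 529, without wild-type replicate 1, where 2 members stayed called. Without wild-type replicate 3 they fell to 577, and 1 member stayed called. The cause of the loss among the members was not tested.

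**Figure D5:**
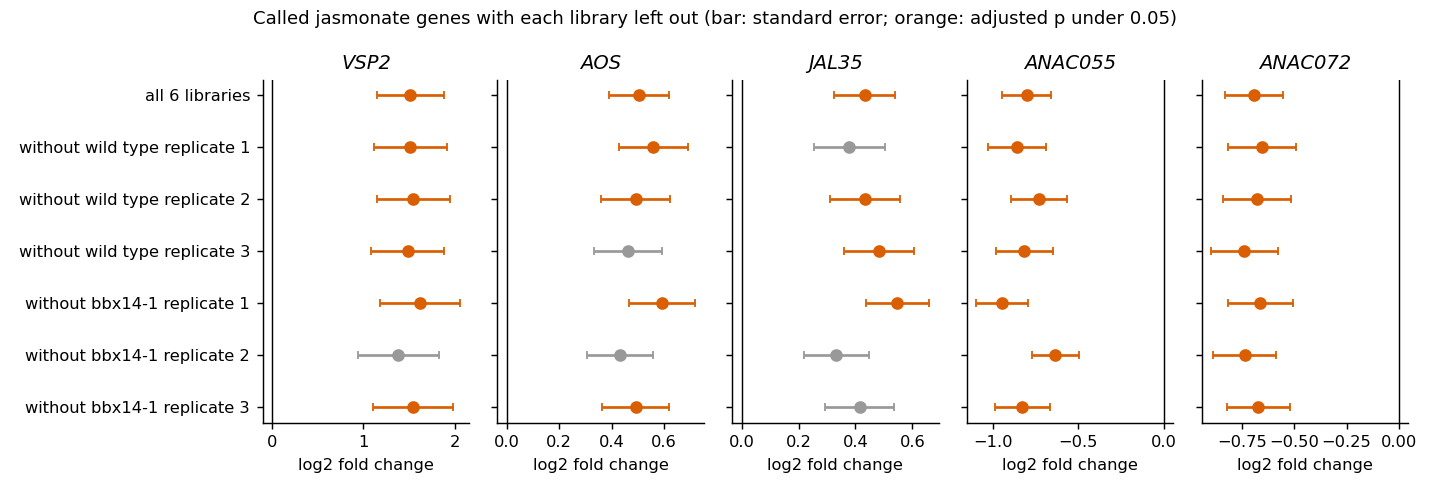
Log2 fold change, libraries labelled bbx14-1 minus wild type, of the called jasmonate genes with all 6 libraries and with each library left out, with the standard error as a bar and calls in orange. VSP2, AOS and JAL35 are grey without bbx14-1 replicate 2, while ANAC055 and ANAC072 stay orange in every row.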

How the data were processed

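The deposited table holds counts of reads for each gene that the authors had normalized with DESeq2, per its name, by a size factor for each library. Build TAIR10 and the tools DESeq2, featureCounts, TopHat2 2.1.1, FastQC and Trimmomatic are named in the submitters' processing notes. How the counting treated strand and multiply placed reads, and its annotation release, is not given in the sources used here. Per the labels' protocols, libraries were strand-specific and depleted of ribosomal RNA. Every value was a whole multiple of the smallest of its library (tolerance 0.01), so reads could be recovered, at 20939505 to 32621183 per library. Most low counts were even, so reads were not taken as independent fragments.

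The test was limma 3.58.1 (R 4.3.3) with a variance trend, run on log2 of the normalized count plus 1 for the 19003 genes whose mean reached 10. P-values are two-sided and Benjamini-Hochberg adjusted over all genes tested, and under 0.05 was called. Fold changes on this scale understate those of low genes. The fit was tested on simulated counts. Limma's voom on recovered reads was added after seeing the data. Coordinates, exons and promoters are from TAIR10.1 (RefSeq), matched to 36632 of 36917 identifiers. The members and lists were chosen with earlier results of these data known. Named genes are the members, BBX14, up to 4 called genes per pathway list or else its 2 most abundant, and for the most abundant member of each role the 3 most alike genes. Others are marked as named after their values were seen, except markers, overlap partners and genes listed at 0.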

Additional observations from a re-analysis of the deposited data

How the results depend on the processing

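The 883 calls over all genes, the 2 calls among the members and the 3 among the other pathway genes rest on the variance trend of limma. Without the trend they fell to 28, 1 (VSP2) and 0 (limma; 8 of the 52 at an unadjusted p under 0.05, against 2665 of all 19003 genes). The standard error of VSP2 was then 0.1475, against 0.3667 with the trend, so the call that stayed rests on a small spread in few reads. Leaving out 1 library gave 529 to 762 calls over all genes, the lowest (529) when wild-type replicate 1 was dropped and 577 when wild-type replicate 3 was, 0 to 2 among the members and 2 to 3 among the other pathway genes. With a mean of at least 50, VSP2 was not tested and 1 member was called. With other pseudocounts, no filter, quantile normalization, scaling to the nuclear total, voom and the replicate block, both member calls held.

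Same-numbered libraries did not deviate together: the correlations of their deviations were 0.0425, 0.0175 and -0.0302 for replicates 1, 2 and 3. No pairing by number was seen, but 3 libraries per group are too few to exclude it. With the replicate number as a block, 915 genes, 2 members and 3 other pathway genes were called.

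Of 544 values of single genes under an alternative, 489 kept direction and call, 16 lost the call, 9 gained it and 30 changed sign, all 30 for genes that were not called. Under quantile normalization the log2 fold change was 0.00083 for JAR1, 0.069 for TPL, 0.0022 for AT1G21660 and 0.014 for ATMG01320. With voom it was -0.0027 for AT1G73740 and 0.031 for AT3G47210. With 1 library left out, the ranges that crossed 0 were -0.67 to 0.30 for VSP1, -0.21 to 0.22 for AOC1, -0.071 to 0.063 for JAR1, -0.25 to 0.35 for JAZ1, -0.062 to 0.023 for TPL, -0.20 to 0.0502 for CYP94B1, -0.085 to 0.30 for ST2A, -0.083 to 0.067 for AT1G21660, -0.11 to 0.038 for ATMG01320, -0.056 to 0.07003 for AT1G73740, -0.32 to 0.30 for AT3G47210, -0.14 to 0.45 for AT5G38212 and -0.17 to 0.42 for AT3G02340. The edgeR and DESeq2 tests planned on recovered reads were not run. The causes were not tested. With 4 to 18 reads per library for VSP1, depth limits what its values can show.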
